A study of Oryza sativa with 24 samples.

Results

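Of 57258 rice probe sets, 214 (0.374%) had a mean root signal at least 2 log2 units higher under Pi deficiency (−Pi) than under Pi sufficiency (+Pi) in the genotype Dular, while their mean in the genotype PB1 moved by no more than 0.5 log2 units either way. These 214 probe sets are the subject of the report. They were chosen by the −Pi and +Pi root arrays of both genotypes, so their increase in Dular root and its lack in PB1 root are given as a description and are not tested. They are 24.2% of the 886 probe sets (1.55% of all) that increased by at least 2 log2 units in Dular root. For comparison, 209 probe sets increased by that much in the roots of both genotypes, and 151 did so in PB1 root alone under the mirrored rule. No gene that the paper names by identifier met the rule among those that could be paired with a probe set.

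Dular is a traditional rice genotype described as tolerant of low Pi, and PB1 (Pusa Basmati-1) is a modern genotype described as sensitive. Seedlings grew for 15 days in nutrient solution with 1 µM Pi (−Pi) or 320 µM Pi (+Pi), and roots and shoots were taken separately. The 8 groups, of 3 arrays each, are Dular root −Pi, Dular root +Pi, PB1 root −Pi, PB1 root +Pi and the same for shoot. Each RNA sample pooled 3 seedlings, so an array stands for a small pool and a genotype for 1 line. Values are log2 signals relative to the median of the same probe set over the 24 arrays, so that 0 is that median and no absolute level is known.

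Phosphate is often the limiting nutrient of rice soils because most of it is bound to minerals. Under deficiency, rice roots raise a conserved set of genes (Pi transporters, acid phosphatases, SPX proteins and lipid-remodelling enzymes) under the control of PHR transcription factors, and they also change their growth, their cell walls and what they secrete. Root barriers of lignin and suberin in the exodermis and endodermis govern what enters and leaves the root, and laccases, peroxidases, dirigent proteins, CASP-like proteins and ketoacyl-CoA synthases belong to the families that build them.

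The arrays had medians between -0.0338 and 0.0298 log2. PB1 shoot −Pi replicate 2 stood apart, with a root mean square deviation from its group mean of 0.963 log2 over the 214 probe sets, against 0.298 to 0.835 for the other 23 arrays. The tissue labels were checked with symbols of photosynthesis genes (RCA, RBCS, CAB and LHCB), of which 10 of 10 probe sets were lower in root than in shoot in each genotype and Pi level, and of root nutrient genes (NAS1, NAS2, YSL15, IRT1, LSI1 and LSI2), of which 6 of 6 were higher in root. These symbols were chosen after the values were seen, since the name patterns listed for this check matched 0 probe sets for shoot and 1 for root, which was lower in root in Dular (-0.49 log2 at −Pi, -0.25 log2 at +Pi) and higher in PB1 (1.38 log2 at −Pi, 1.43 log2 at +Pi). Both marker sets differed with Pi in Dular root. The photosynthesis probe sets were lower at −Pi in 10 of 10 in Dular root (median difference -3.45 log2), against 6 of 10 in PB1 root (median -0.49 log2). The root nutrient probe sets were lower in 6 of 6 in Dular root (median -3.91 log2), against 3 of 6 in PB1 root (median 0.36 log2). Their part in the changes below was not tested. In such bulk samples, fewer cells of a type and less RNA per cell cannot be told apart.

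The increase in Dular root had a median of 2.54 log2 and ranged from 2.00 to 6.25 log2. It lay under 3 log2 for 152 probe sets, between 3 and 4 for 41, between 4 and 5 for 16 and above 5 for 5. Every −Pi array of Dular root lay above every +Pi array for 201 of the 214, a share the rule favours (14.4% of all probe sets). The members just inside the limit were Os02g08220, LOC4340011 and Os08g05520 with 2.00, 2.01 and 2.01 log2, and the probe sets just outside it were Os02g09400, LOC4336455 and Os04g01520 with 2.00, 2.00 and 1.99 log2. In PB1 root the largest changes kept were 0.49, 0.49 and 0.48 log2 and -0.49, -0.45 and -0.44 log2, and the nearest ones left out were 0.50, 0.50 and 0.51 log2 and -0.50, -0.52 and -0.54 log2. Leaving out any 1 Dular root array kept the increase at 2 log2 or more for 146 of the 214 probe sets and at 1 log2 or more for 210.

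Dular ended higher than PB1 more often than it started lower, but neither description covered the whole set. At −Pi, Dular root lay at least 1 log2 unit (2-fold) above PB1 root for 131 of the 214 probe sets, within 1 log2 unit for 60 and at least 1 log2 unit below for 23. At +Pi, Dular root lay at least 1 log2 unit below PB1 root for 97, within 1 for 94 and at least 1 above for 23. Here and below, a distance from PB1 is Dular minus PB1, so that a negative one means lower in Dular. Combining both, 116 probe sets (54.2%) were at least 2-fold higher in Dular at −Pi without being at least 2-fold lower at +Pi. A further 82 (38.3%) were at least 2-fold lower at +Pi without being at least 2-fold higher at −Pi, 15 did both and 1 did neither. Because the rule sets the 2 differences at least 1.5 log2 units apart, nearly every member had to fall in one of these classes. Over all probe sets, 7.07% were at least 2-fold higher in Dular root at −Pi and 8.07% at least 2-fold lower at +Pi. Of the members lower at +Pi, 23 were still at least 2-fold below PB1 at −Pi, and of those higher at −Pi, 23 were already at least 2-fold above PB1 at +Pi. The plot of all 214 probe sets by array shows the classes as a block of high Dular −Pi arrays and a block of low Dular +Pi arrays.

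**Figure D1:**
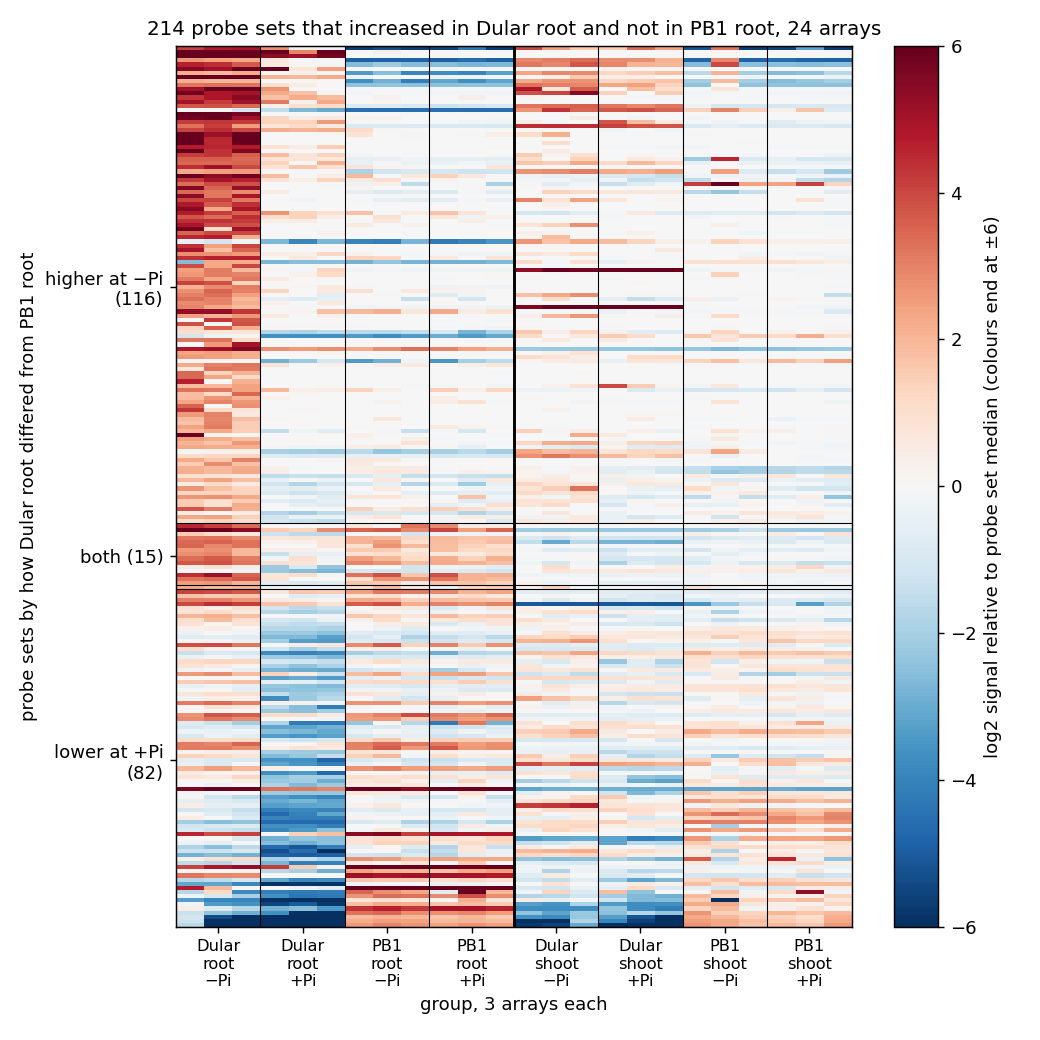
Log2 signal of the 214 probe sets (rows) on the 24 arrays (columns, 3 per group), relative to each probe set's median. In the 116 upper rows the Dular root −Pi arrays stand above the PB1 root arrays on average, and in the 82 lower rows the Dular root +Pi arrays stand below them.

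**Figure D2:**
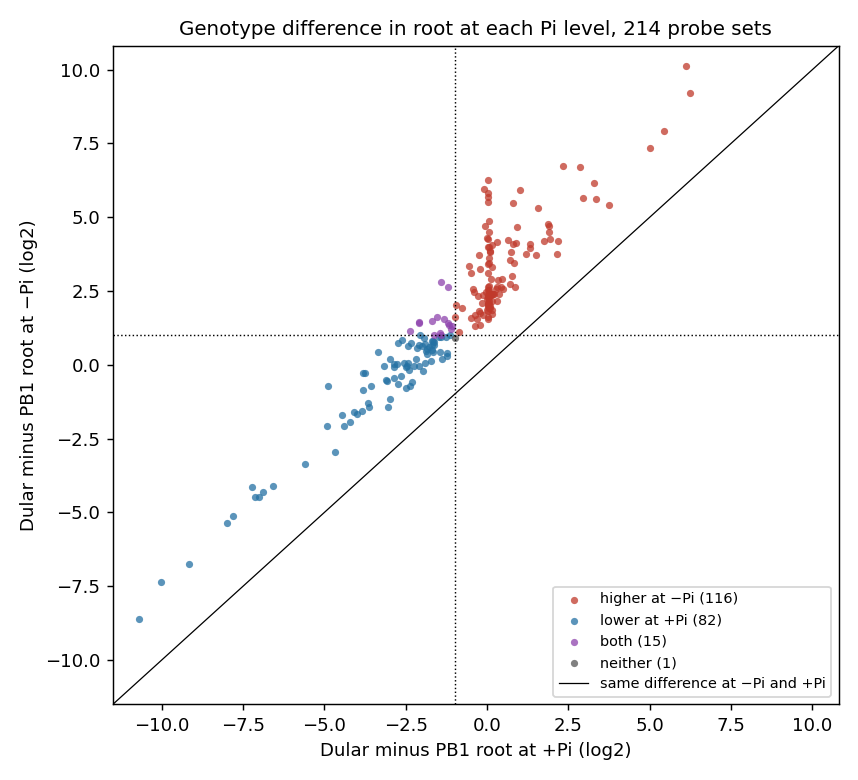
Dular minus PB1 root signal (log2) at −Pi on the vertical axis and at +Pi on the horizontal axis, 1 point per probe set, coloured by class. The dotted lines mark the limits of 1 log2 unit, and all 214 points lie above the diagonal by at least 1.5 log2 units, as the rule requires.

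Among the 152 members with a gene (146 distinct genes), 68 were higher in Dular at −Pi, 72 lower at +Pi, 11 both and 1 neither. Among the 62 without one, 48 were higher at −Pi, 10 lower at +Pi and 4 both. The annotated members therefore divide nearly evenly, while those without a gene lie mainly in the class that is higher at −Pi. Of the 152, 118 had their gene from the platform annotation. The others had it only from the paper's supplementary gene list, which the study chose on these samples for an effect of Pi. Having a gene is thus partly set by these data.

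The largest increase of a named gene belonged to Os10g18760, a dirigent protein, of a family that guides the coupling of monolignols into lignans and lignin. Its 3 Dular root −Pi arrays read 6.30, 6.73 and 5.74 log2, against 0.02, 0.01 and 0.01 log2 at +Pi. PB1 root read -0.01, 0.01 and 0.00 log2 at −Pi and -0.02, -0.01 and -0.04 log2 at +Pi. The 21 arrays outside Dular root −Pi thus stayed within a span of 0.06 log2, and the 3 Dular −Pi arrays lay 6.26 log2 above PB1 on average.

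Os12g12000 encodes RALFL46, a rapid alkalinization factor, one of the small secreted peptides that raise the pH outside the cell and are perceived by receptor kinases. Its Dular root arrays read 5.03, 6.07 and 6.35 log2 at −Pi, against 2.68, 0.04 and 0.02 log2 at +Pi, of which 1 +Pi array was well above its partners. All 6 PB1 root arrays lay between -0.11 and -0.06 log2. Os02g01590, a glycosyl hydrolase, of a family of enzymes that cleave sugar bonds, read 5.94, 5.38 and 5.81 log2 at −Pi in Dular, against 1.86, 0.05 and 0.35 log2 at +Pi. Its PB1 root arrays were scattered, at 1.94, -0.03 and 0.62 log2 at −Pi and 1.40, 0.63 and 0.03 log2 at +Pi, and none came near the Dular −Pi arrays.

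Os08g06170, a berberine-bridge-like oxidase, averaged 3.75 ± 0.50 log2 in Dular root at −Pi and -0.08 ± 0.13 log2 at +Pi (SD, n = 3 each). PB1 root averaged -0.40 log2 at −Pi and -0.38 log2 at +Pi. A probe set paired with Os04g29000, a sulfotransferase, differed by 4.87 log2 in Dular root and 0.19 log2 in PB1 root. The platform annotation places this probe set in another gene (LOC4342382) on a different chromosome, and another probe set of that gene moved by -1.87 log2 in Dular root, so its gene is uncertain. Os04g52660, an expressed protein of unknown function, was 6.72 log2 above PB1 at −Pi and 2.34 log2 above it at +Pi.

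Os01g50080 encodes an MDR-like ABC transporter, of a class of ATP-driven exporters. Its Dular root arrays read 4.66, 4.45 and 3.67 log2 at −Pi and 0.53, 0.09 and -0.09 log2 at +Pi, against -2.60, -2.13 and -2.59 log2 at −Pi and -2.56, -2.76 and -2.67 log2 at +Pi in PB1 root. The genotypes did not overlap at either Pi level, and the distance between their means was 6.70 log2 at −Pi and 2.84 log2 at +Pi.

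Os04g34600 encodes an abscisic stress-ripening (ASR) protein, a small hydrophilic protein of drought and metal stress in rice. In Dular root it read 4.86, 3.98 and 3.86 log2 at −Pi, against 0.00, 0.00 and 0.00 log2 at +Pi. In PB1 root it read 0.53, 0.00 and 0.24 log2 at −Pi and -0.04, -0.04 and -0.06 log2 at +Pi. Another ASR gene among the members, Os01g73250, chosen after its values were seen, took the opposite form. Dular root averaged -0.44 log2 at −Pi and -3.55 log2 at +Pi, against -0.48 log2 at −Pi and -0.68 log2 at +Pi in PB1 root, so that Dular was 0.03 log2 from PB1 at −Pi and -2.87 log2 at +Pi. Os02g05060, the auxin-responsive gene SAUR5, averaged 4.61 log2 at −Pi and 0.87 log2 at +Pi in Dular root, against 0.52 log2 at −Pi and 0.07 log2 at +Pi in PB1 root.

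Members of the class lower in Dular at +Pi had a signal nearer to that of PB1 at −Pi, which the rule and the class limits require. SWEET2B (LOC4326923) belongs to the SWEET family of sugar transporters. It read 0.46, -0.09 and -0.83 log2 in Dular root at −Pi and -3.95, -4.14 and -4.14 log2 at +Pi, against 0.24, 0.08 and 0.10 log2 at −Pi and -0.40, -0.08 and -0.28 log2 at +Pi in PB1 root. The 3 Dular +Pi arrays stood -3.82 log2 from PB1 on average, while at −Pi the genotypes overlapped. LOC4335335, a gene with no annotation here, read 0.45, 0.18 and 0.25 log2 in Dular root at −Pi and -3.69, -3.42 and -4.65 log2 at +Pi, and its 6 PB1 root arrays lay between -0.77 and -0.08 log2. A further probe set of SWEET2B, which did not meet the rule because PB1 root moved by 0.67 log2, differed by 4.33 log2 in Dular root.

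Os03g08900 encodes a MATE efflux protein, of the family that exports organic acids and secondary metabolites. Its Dular root arrays read 0.05, -0.73 and -1.15 log2 at −Pi and -4.68, -4.06 and -3.13 log2 at +Pi, against -0.17, -0.32 and -0.50 log2 at −Pi and -0.57, 0.58 and -0.60 log2 at +Pi in PB1 root. Os04g42950, a MYB transcription factor, read 4.58, 3.90 and 4.11 log2 at −Pi and 0.08, 1.40 and 1.81 log2 at +Pi in Dular root, against 5.40, 5.57 and 4.17 log2 at −Pi and 4.95, 4.88 and 4.89 log2 at +Pi in PB1 root. In both genes the 3 Dular +Pi arrays were the lowest of the 12 root arrays.

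Both peroxidases and a CASP-like gene were also of this class. Os10g41720, a class III peroxidase, averaged 3.17 ± 0.29 log2 at −Pi and 0.34 ± 0.43 log2 at +Pi in Dular root, against 3.20 ± 0.18 log2 at −Pi and 2.80 ± 0.31 log2 at +Pi in PB1 root (SD, n = 3 each). Os06g16350, a further peroxidase, was 0.94 log2 from PB1 at −Pi and -1.41 log2 at +Pi. Os01g26120 encodes the CASP-like protein CASPL1E1, a membrane protein related to those that place the Casparian strip. Its Dular root arrays read -0.54, -0.86 and -0.90 log2 at −Pi and -3.60, -3.63 and -4.79 log2 at +Pi, and its 6 PB1 root arrays lay between -1.32 and -0.70 log2.

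The 15 members of a small class lay below PB1 at +Pi and above it at −Pi. Os11g20090, an O-methyltransferase, an enzyme class that methylates phenolic compounds, read 6.74, 6.45 and 5.36 log2 at −Pi and 1.56, 1.36 and 2.81 log2 at +Pi in Dular root. PB1 root lay between, at 3.54, 3.68 and 2.89 log2 at −Pi and 4.02, 2.50 and 3.47 log2 at +Pi. The laccase gene LAC3 (Os01g61160), of the copper oxidases that polymerise monolignols, read 3.18, 3.27 and 2.83 log2 at −Pi and 0.70, 0.79 and 0.72 log2 at +Pi in Dular root, against 2.09, 1.95 and 1.31 log2 at −Pi and 2.01, 1.71 and 1.75 log2 at +Pi in PB1 root. The GDSL-like lipase Os07g47210 was 1.15 log2 above PB1 at −Pi and stood -2.37 log2 from it at +Pi. A further laccase, LAC4 (Os01g62480), took another form, being 2.41 log2 above PB1 at −Pi and 0.19 log2 at +Pi.

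**Figure D3:**
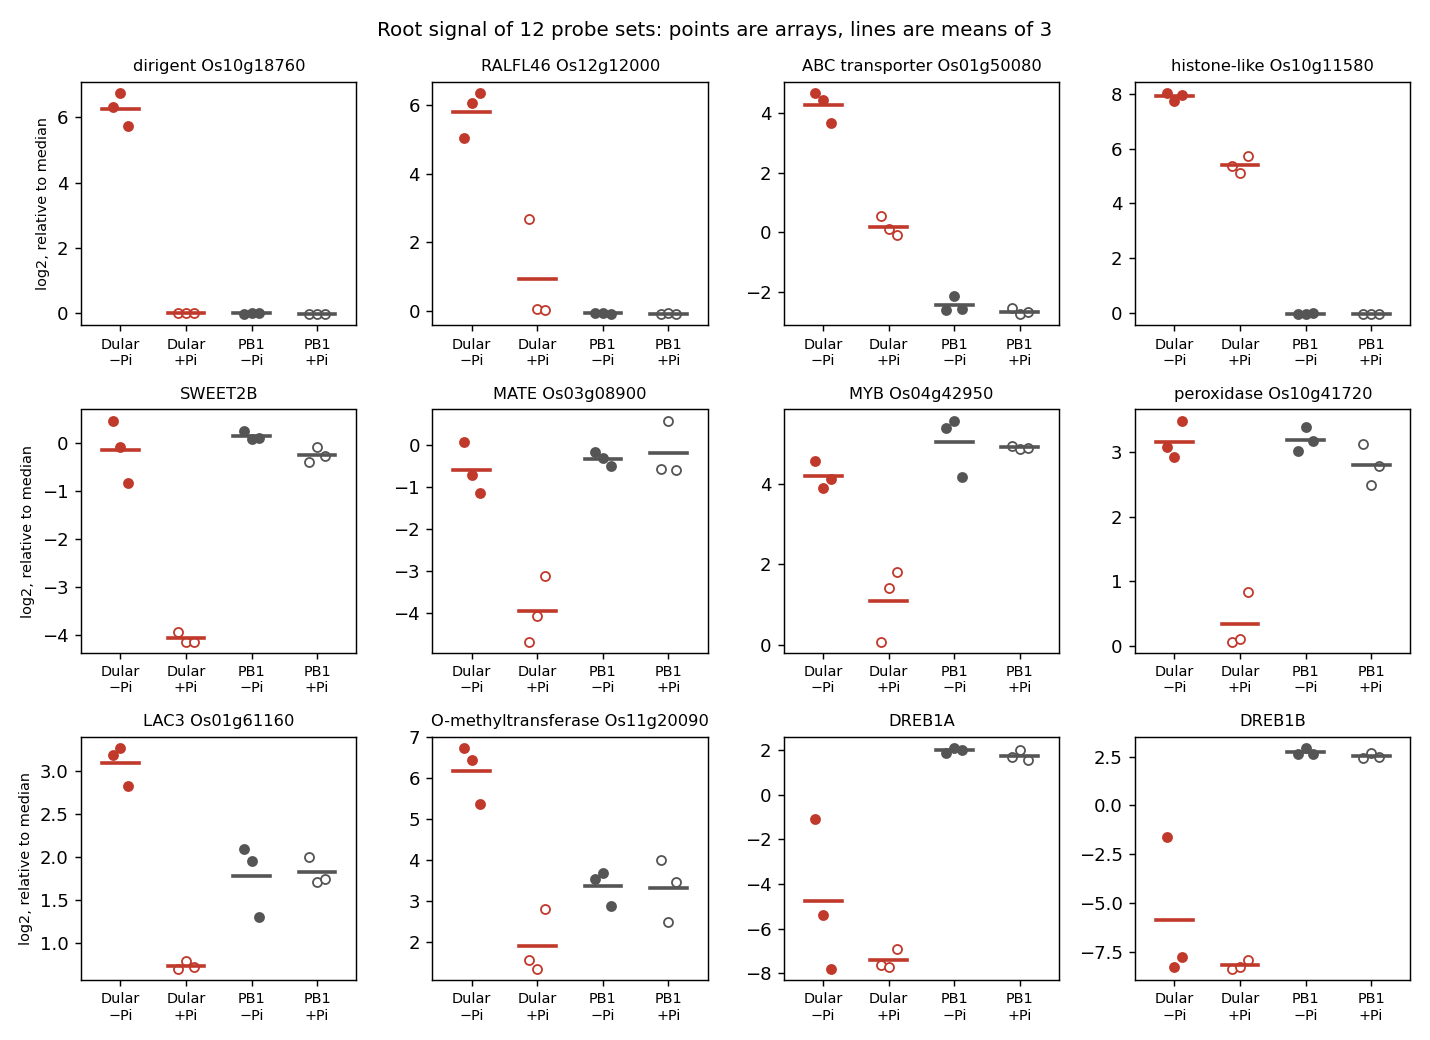
Root signal of 12 probe sets on the Dular −Pi, Dular +Pi, PB1 −Pi and PB1 +Pi arrays (log2 relative to the probe set's median, axes differ between panels). The upper row shows genes higher in Dular at −Pi, the middle row genes lower in Dular at +Pi, and the lower row LAC3 and Os11g20090, which did both, with DREB1A and DREB1B, in which 1 of the 3 Dular −Pi arrays lies above the rest.

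The widest distances between the genotypes were far larger than the Pi change. DREB1A (LOC4347620) and DREB1B (LOC4347618) are neighbouring genes of cold and drought responsive transcription factors. DREB1A read -1.10, -5.39 and -7.79 log2 in Dular root at −Pi and -7.63, -7.73 and -6.90 log2 at +Pi, against 1.86, 2.10 and 1.98 log2 at −Pi and 1.67, 1.98 and 1.56 log2 at +Pi in PB1 root. DREB1B read -1.61, -8.28 and -7.74 log2 in Dular root at −Pi and -8.35, -8.27 and -7.93 log2 at +Pi, against 2.62, 2.96 and 2.64 log2 at −Pi and 2.43, 2.68 and 2.46 log2 at +Pi in PB1 root. For both genes the increase in Dular root came mainly from −Pi replicate 1. Without that array the increase was 0.83 log2 for DREB1A and 0.17 log2 for DREB1B, in place of 2.66 and 2.31 log2. Without the same array 4 of the 214 members fell below 1 log2, the other two being the calcium-dependent protein kinase gene CPK21 (LOC4346187) and a probe set with no gene. LOC4325662, a gene with no annotation here, showed the same array apart, with -1.25, -6.84 and -6.83 log2 at −Pi, -7.28, -8.58 and -8.27 log2 at +Pi and PB1 root arrays between 1.92 and 2.50 log2, and without it the increase was 1.21 log2 in place of 3.07 log2.

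At the other end, Os10g11580, annotated as a histone-like transcription factor, read 8.01, 7.75 and 7.95 log2 at −Pi and 5.35, 5.10 and 5.72 log2 at +Pi in Dular root. Its 6 PB1 root arrays lay between -0.05 and -0.01 log2 and its 12 shoot arrays between -0.04 and 0.03 log2. LOC107277424 was also high in Dular root alone, with 8.89, 8.54 and 10.49 log2 at −Pi and 9.12, 2.88 and 6.58 log2 at +Pi, but its −Pi and +Pi arrays overlapped, its increase was 1.46 log2 without +Pi replicate 2 in place of 3.11 log2, and the PB1 root arrays lay between -0.07 and 0.33 log2.

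The genotypes' root signals averaged over both Pi levels come from the root arrays that chose the members, so they are given as a description and support nothing. By the call used below for the shoots (a limma p, adjusted over all probe sets by Benjamini-Hochberg, of 0.05 or less and a 2-fold difference or more), 145 of the 214 members differed (67.8%, against 13.2% of all probe sets), 95 of them higher in Dular (44.4%, against 5.64%) and 50 lower (23.4%, against 7.58%). The rule admits no probe set that is flat on all arrays, and such a probe set cannot be called. The shares of members and of all probe sets are therefore not a like comparison. The lowest averages with a gene were those of DREB1B at -9.66 ± 0.84 log2 (SE), LOC4325662 at -8.68 (by its member probe set alone), DREB1A at -7.95, Os11g10470 at -6.68 and LOC4329805 at -6.46 log2 (Dular minus PB1). The highest were those of LOC107277424 at 7.72 ± 0.66 log2 (SE), Os10g11580 at 6.68 ± 0.07 log2 (SE), LOC4327925 at 6.17, Os01g50080 at 4.77 and the DUF584 gene Os04g45834 at 4.58 log2. Sequence differences between the genotypes under the probes cannot be told apart from differences in transcript. The BioB control probe sets, which report a transcript added in the laboratory, had a median 4.82 log2 higher in Dular than in PB1 root arrays, and their part in these differences was not tested. They differed by -0.168 log2 between −Pi and +Pi in Dular root and by 0.00559 log2 in PB1 root.

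By family, the members spread over many functions, and no classical Pi starvation gene was found among those with an annotation. Families were read from the annotation of the paper's supplementary gene list, of which 1806 entries were at hand and which cover 110 of the 214 members. The percentages given for a family below are its share of those 110 members, against its share of all 1806 entries. They were not tested. That list was chosen by the study on these samples for an effect of Pi over both genotypes, so it is not independent evidence. Of its 37 entries for Pi transport, SPX proteins, phosphatases and lipid remodelling, 19 increased by at least 2 log2 units in Dular root, and all 19 exceeded 0.5 log2 in PB1 root, leaving 0 members. Of all 548 entries with such an increase, 422 (77.0%) exceeded 0.5 log2 in PB1 root, as did all 5 heat shock and chaperone entries among them.

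Transporters and channels gave 11 members of 98 entries (10%, against 5.43%), 6 lower at +Pi, 4 higher at −Pi and 1 both. Besides Os01g50080 and Os03g08900 they include, as examples chosen after their values were seen like the further family members below, the MATE genes Os03g37490 and Os12g42130, the potassium channel Os05g35410 (AKT2/3), which loads potassium in the phloem in Arabidopsis, the antiporter mfs1 (Os01g17214) and the metal cation transporter Os06g37010. Os03g37490 was -1.58 log2 from PB1 at −Pi and -3.84 log2 at +Pi, and Os05g35410 -1.67 and -4.01 log2, so both were below PB1 at either level.

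Transcription factors gave 8 members of 53 entries (7.27%, against 2.93%), 5 higher at −Pi and 3 lower at +Pi. They are 4 annotated as MYB, a MYB-like gene, a homeobox gene (Os03g03260), an NF-Y subunit (Os07g06470) and Os10g11580. Os07g06470, of the trimeric factors that bind CCAAT boxes, read 4.31, 4.86 and 5.41 log2 at −Pi and 1.77, 2.24 and 1.89 log2 at +Pi in Dular root, and its PB1 root arrays lay between -0.02 and 0.34 log2. The NAC gene Os04g35660, annotated as no apical meristem and so outside this list, read 5.27, 5.27 and 4.29 log2 at −Pi and 0.08, 0.17 and 1.76 log2 at +Pi in Dular root, against 1.96, 2.16 and 0.67 log2 at −Pi and 2.27, 0.51 and 0.91 log2 at +Pi in PB1 root.

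Protein kinases gave 6 members of 67 entries (5.45%, against 3.71%), 3 of each form. The receptor kinase Os04g34330 averaged 4.50 log2 at −Pi and 1.15 log2 at +Pi in Dular root, against 0.38 log2 at −Pi and 0.28 log2 at +Pi in PB1 root. The lectin receptor kinase Os07g38810 averaged 0.49 and -2.79 log2 in Dular root, against -0.13 log2 at −Pi and -0.34 log2 at +Pi in PB1 root. Hormone genes gave 6 members of 41 entries (5.45%, against 2.27%), 4 lower at +Pi and 2 higher at −Pi, and they include the cytokinin oxidase CKX4 (Os01g71310), which degrades cytokinin, and a gibberellin 20-oxidase (Os03g63970), which acts late in gibberellin synthesis. CKX4 was -2.07 log2 from PB1 at −Pi and -4.39 log2 at +Pi. Another probe set of Os03g63970 moved by -0.03 log2 in Dular root.

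Lipid barrier genes gave 5 members of 25 entries (4.55%, against 1.38%), 3 lower at +Pi and 2 both. They are CASPL1E1, the ketoacyl-CoA synthases Os03g12030 and Os05g49900, which elongate fatty acids for suberin and wax, and the lipases Os07g47210 and Os11g31940. Os03g12030 was -0.52 log2 from PB1 at −Pi and -3.11 log2 at +Pi. The lipid transfer protein genes LTPL99 (Os03g57980) and LTPL73 (Os03g57970), consecutive in numbering, were 0.85 and -0.19 log2 from PB1 at −Pi, with -2.61 and -2.39 log2 at +Pi.

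Cell wall genes gave 3 members of 57 entries (LAC3, LAC4 and an arabinogalactan protein, Os03g63540), or 2.73% against 3.16%. Glycosyltransferases gave 3 of 21 (2.73%, against 1.16%), defence genes 3 of 26 (2.73%, against 1.44%) and peroxidases 2 of 17 (1.82%, against 0.941%). Cytochrome P450 genes gave 2 of 30 (1.82%, against 1.66%) and histone and cell division genes 1 of 12 (0.909%, against 0.664%). The glucosyltransferase Os07g10190 increased by 3.36 log2 in Dular root and the glycosyltransferase Os06g49320 by 2.27 log2. Further probe sets of Os07g10190 moved by 1.76 and -0.29 log2 in Dular root. The P450 genes Os02g44654 and Os06g43384 increased by 2.68 and 2.43 log2. The first was -2.44 log2 from PB1 at +Pi and the other 2.56 log2 above it at −Pi. Os06g45690, annotated as a symbiosis-related disease resistance protein, increased by 2.70 log2, and the cyclin-dependent kinase Os10g06510 by 2.09 log2.

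Shoots of the same genotypes were not used by the rule and show where these genes moved outside the root. Within 0.5 log2 on the 21 arrays outside Dular root −Pi lay 11.2% of the members and 43.4% of all probe sets. The shares of members and of all probe sets in shoot, here and below, are therefore not a like comparison. In Dular shoot, limma called 22 of the 214 members between −Pi and +Pi (10.3%, against 2.34% of all probe sets), 21 higher at −Pi (9.81%, against 1.16%) and 1 lower (0.467%, against 1.18%). In PB1 shoot it called 4 (1.87%, against 1.17%), of which 2 were higher (0.935%, against 0.603%) and 2 lower (0.935%, against 0.564%). By limma 0 members were called higher in both shoots, and 2 were higher in both at an unadjusted p under 0.05 and 2-fold or more. The median change of the members was 0.25 log2 in Dular shoot and 0.03 log2 in PB1 shoot, against 0.03 and 0.02 log2 over all probe sets. Fitted to the 12 shoot arrays alone, the counts were 14 in Dular shoot and 0 in PB1 shoot. Without PB1 shoot −Pi replicate 2, the array that stood apart, they were 28 and 0, so the 4 calls in PB1 shoot were lost under either setting. Without PB1 shoot +Pi replicate 1 or 3, 1 call remained in PB1 shoot. At an unadjusted p under 0.05 and 2-fold or more, PB1 shoot had 7 members higher and 3 lower in the full fit, 3 and 3 with the shoot arrays alone, and 3 and 2 without that array.

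For comparison with probe sets that increased in both roots, a difference of at least 1 log2 unit at −Pi, without a test, was seen in Dular shoot for 39 of the 214 members (18.2%), against 95 of the 209 (45.5%) that increased in both roots, 13 of the 151 (8.61%) that increased in PB1 root alone and 1.79% of all probe sets. In PB1 shoot it was seen for 12 (5.61%) of the members, against 94 (45.0%), 31 (20.5%) and 1.83%.

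Among the members called in Dular shoot, the largest increases with a gene were those of Os06g20040, Os07g30930, Os01g50610 and Os12g32640. Os06g20040, an aspartic protease of the nepenthesin type, read 1.56, 0.44 and 1.45 log2 in Dular shoot at −Pi and -0.53, -1.76 and -1.44 log2 at +Pi, a difference of 2.40 ± 0.57 log2 (SE, adjusted p = 0.0133). Os07g30930, a pentatricopeptide repeat protein, of a family that processes organelle RNA, read 1.76, 2.27 and 2.80 log2 at −Pi and -0.03, 0.10 and -0.14 log2 at +Pi, a difference of 2.30 ± 0.34 log2 (SE, adjusted p = 0.000399). Neither gene's arrays overlapped between Pi levels. The carboxyl methyltransferase Os01g50610 differed by 2.23 ± 0.43 log2 (SE, adjusted p = 0.00308) and Os12g32640, a haemolysin-III family membrane protein, by 2.17 ± 0.48 log2 (SE, adjusted p = 0.00899), all by limma. The adjusted p of Os06g20040, Os01g50610 and Os12g32640 exceeded 0.05 when the 12 shoot arrays were fitted alone (0.0590, 0.0635 and 0.0882), and that of Os07g30930 did not. The call of Os06g20040 was also lost without Dular shoot −Pi replicate 1 or 3 or +Pi replicate 2 or 3, each left out in turn (adjusted p = 0.0574, 0.0629, 0.0633 and 0.0517). In root, Os06g20040 was 0.02 log2 from PB1 at −Pi and -2.77 log2 at +Pi, and Os07g30930 2.91 and 0.10 log2.

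Of the 12 genes with the largest increase in Dular root and no overlap between its −Pi and +Pi arrays, limma called 2 in Dular shoot and 1 in PB1 shoot. The shares were 16.7% (against 10.3% of the members and 2.34% of all probe sets) and 8.33% (against 1.87% and 1.17%). Counts this small do not link the root and shoot responses. The called genes were Os04g34600, with 1.66 ± 0.33 log2 (SE, adjusted p = 0.0042), and Os08g06170, with 1.79 ± 0.41 log2 (SE, adjusted p = 0.00997), in Dular shoot, and SWEET2B, with -1.34 ± 0.31 log2 (SE, adjusted p = 0.018), in PB1 shoot. The adjusted p of each exceeded 0.05 with the shoot arrays alone (0.0533, 0.0952 and 0.101). Os08g06170 also lost its call without Dular shoot −Pi replicate 1 or 3 (adjusted p = 0.0568 and 0.0570), and SWEET2B without PB1 shoot −Pi replicate 2 or +Pi replicate 1 or 3 (0.0546, 0.0680 and 0.0631). RALFL46 differed by 2.13 ± 0.82 log2 in Dular shoot without reaching the threshold (adjusted p = 0.132 by limma). The dirigent gene Os10g18760 differed by 0.02 ± 0.14 log2. LOC4341547 was the single member lower at −Pi in Dular shoot, at -1.99 ± 0.51 log2 (SE, adjusted p = 0.0208) by limma. Its call was lost without Dular shoot −Pi replicate 2 or 3 or +Pi replicate 1 (adjusted p = 0.0562, 0.0735 and 0.0563, the difference being -1.15 log2 without +Pi replicate 1) and with the shoot arrays alone (0.146). Among the families, against 9.81% of the members and 1.16% of all probe sets, those called higher at −Pi in Dular shoot were 2 of 11 transporters (Os06g37010 and the peptide transporter Os11g18044), 2 of 6 hormone genes (Os04g34600 and the receptor kinase Os06g16300, which is also 1 of the 6 kinases), 1 of 3 cell wall genes (LAC4) and 1 of 3 defence genes (the thaumatin gene Os06g47600). LAC4 lost its call without Dular shoot −Pi replicate 1 or 3 or +Pi replicate 2 or 3 (adjusted p = 0.145, 0.116, 0.116 and 0.140) and with the shoot arrays alone (0.116), and Os06g37010 fell below 2-fold without −Pi replicate 1, at 0.98 log2. None of the 8 transcription factors was called by limma, and 1 was higher at an unadjusted p under 0.05 and 2-fold or more.

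The shoot responses of the genotypes were also compared with each other. Limma called a difference for 9 of the 214 members (4.21%, against 1.39% of all probe sets), of which 9 had the higher −Pi minus +Pi value in Dular (0.816% of all probe sets) and 0 in PB1 (0.573%). At an unadjusted p under 0.05 and 2-fold or more the counts were 29 and 2, and unmoderated tests called 8 and 0. With the 12 shoot arrays alone 6 were called, of which 3 were among the 9. Of the 9, 4 had a gene, and the examples here were chosen after their values were seen. The calcium/proton exchanger gene CAX1a (LOC4324573), a vacuolar antiporter, read 2.05, 2.15 and 2.63 log2 in Dular shoot at −Pi and 1.03, 0.08 and 0.21 log2 at +Pi, against 0.35, -0.08 and 0.72 log2 at −Pi and 1.70, 1.23 and 1.26 log2 at +Pi in PB1 shoot. Its change was 1.84 ± 0.33 log2 (SE, adjusted p = 0.00174) in Dular shoot and -1.07 ± 0.33 log2 (SE, adjusted p = 0.0772) in PB1 shoot, where it was not called, and the changes differed by 2.90 ± 0.46 log2 (SE, adjusted p = 0.00204), all by limma. Its root arrays were 0.16, -0.17 and -0.40 log2 at −Pi and -2.05, -3.30 and -3.42 log2 at +Pi in Dular, and -1.04 and -0.99 log2 on average in PB1. The largest difference of all belonged to a probe set with no gene, OsAffx.12508.1.S1_at, which read 4.15, 4.28 and 4.64 log2 in Dular shoot at −Pi and 0.75, 0.85 and 0.66 log2 at +Pi, against values between -0.29 and 0.68 log2 on the 6 PB1 shoot arrays.

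**Figure D4:**
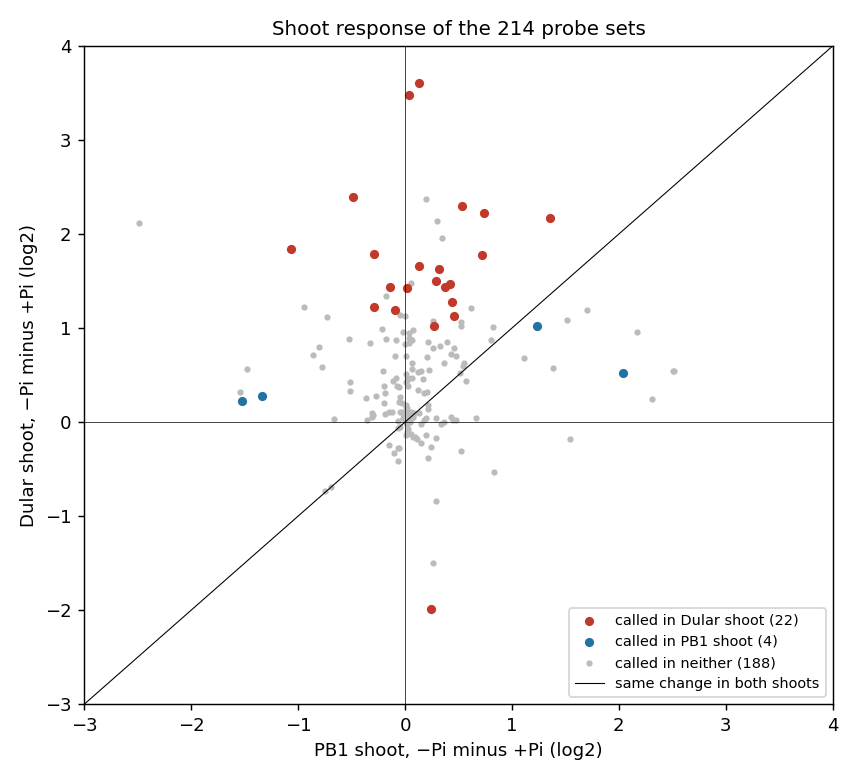
Change between −Pi and +Pi (log2) in Dular shoot on the vertical axis and in PB1 shoot on the horizontal axis, 1 point per member. The 22 members called in Dular shoot lie mostly above the diagonal, and 188 of the 214 were called in neither shoot.

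The genotype differences of the root recurred in part in the shoot. At −Pi, limma called 60 of the 214 members between Dular and PB1 shoot (28%, against 11.4% of all probe sets), 38 higher in Dular (17.8%, against 5.9%) and 22 lower (10.3%, against 5.49%). At +Pi it called 50 (23.4%, against 10.3%), 18 higher in Dular (8.41%, against 4.91%) and 32 lower (15%, against 5.35%). The calls went mostly in the direction of the root class, which was itself set by the root difference between the genotypes. No count of all probe sets with such a root difference was made, so the class counts are a description. Of the 82 members lower in Dular root at +Pi, 20 were called lower in Dular shoot at −Pi and 11 higher, and at +Pi 29 (35.4%) were called lower and 0 higher (33 and 1 at an unadjusted p under 0.05 and 2-fold or more). Of the 116 members higher in Dular root at −Pi, 27 (23.3%) were called higher in Dular shoot at −Pi and 1 lower, and at +Pi 18 were higher and 2 lower. Across the 214 members, which share probes and arrays and are not independent, the genotype difference averaged over Pi correlated between root and shoot with a Pearson r of 0.665, against 0.677 over all probe sets.

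Single genes ranged from a difference shared by both tissues to one seen in root alone. DREB1B stood at -9.18 ± 1.18 log2 (SE, adjusted p = 1.26e-05) in shoot at +Pi and the member probe set of LOC4325662 at -6.90 ± 1.22 log2 (SE, adjusted p = 0.000331), both lower in Dular as in root. The further probe set of LOC4325662 did not share the root difference, with Dular 0.85 log2 above PB1 root at −Pi and 0.72 log2 above it at +Pi. The ABC transporter Os01g50080 was higher in Dular shoot by 3.64 ± 1.09 log2 (SE, adjusted p = 0.0195) at −Pi and 4.85 ± 1.09 log2 (SE, adjusted p = 0.00272) at +Pi, and both calls were lost with the shoot arrays alone (adjusted p = 0.144 and 0.0537). The call at −Pi was also lost without Dular shoot −Pi replicate 3 or PB1 shoot −Pi replicate 1 or 3 (0.0657, 0.125 and 0.126). Its PB1 shoot −Pi arrays read -2.59, 3.96 and -2.51 log2, and without replicate 2, which lay at the Dular level, the difference at −Pi was 5.81 log2 (adjusted p = 3.86e-10). Os10g11580, with the root average of 6.68 log2, differed by 0.01 ± 0.10 log2 in shoot at −Pi and 0.01 ± 0.10 log2 at +Pi. SWEET2B was lower in Dular shoot at both levels, at -1.72 log2 at −Pi and -3.33 log2 at +Pi (Dular minus PB1, adjusted p = 0.000336 and 2.89e-07 by limma). The MYB gene Os04g42950 differed by 0.00 ± 0.35 log2 in shoot at either level, where its 12 arrays lay between -0.13 and -0.08 log2. Whether the flat shoot signals of this gene and of Os10g11580 lie near the detection limit is not known. Their small differences therefore do not show that the genotypes had equal transcript in shoot. Averaged over Pi in PB1, 48 of the 214 members were at least 2-fold higher in root than in shoot, 42 at least 2-fold lower and 124 between.

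**Figure D5:**
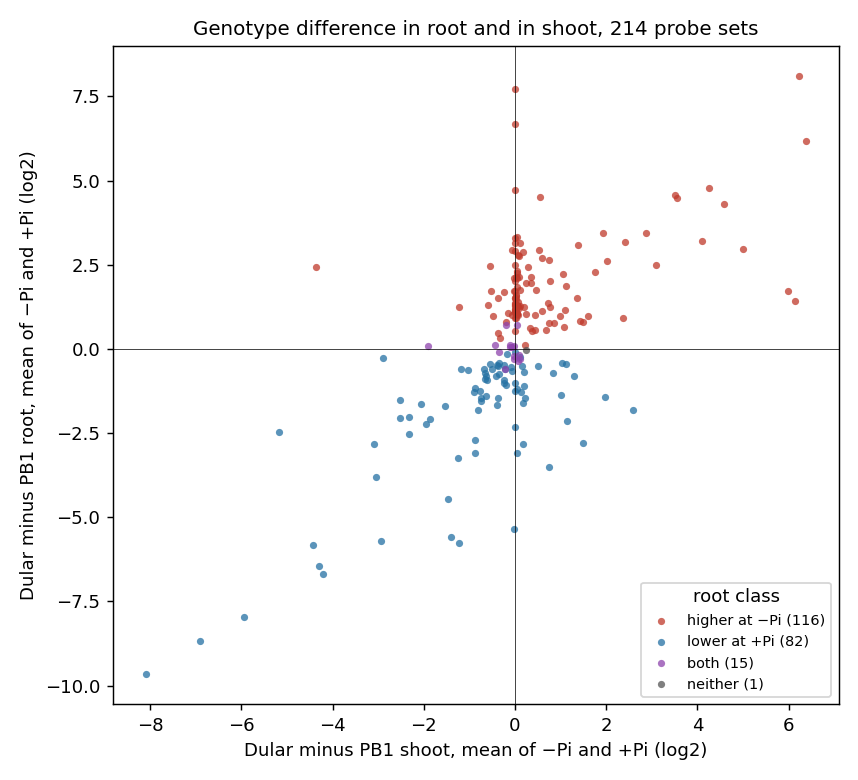
Dular minus PB1 signal averaged over −Pi and +Pi (log2) in root on the vertical axis and in shoot on the horizontal axis, 1 point per member, coloured by the root class. Points of the class lower at +Pi reach far down on the left, and many of the class higher at −Pi lie near 0 in shoot.

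A subset was flat everywhere but in Dular root at −Pi. On the other 21 arrays, 24 of the 214 members (11.2%, against 43.4% of all probe sets) stayed within 0.5 log2, 19 of them without a gene and 5 with one, among them the dirigent gene. For the 19, the array medians in Dular root at −Pi were 3.90, 2.38 and 3.75 log2, and on each of the 21 other arrays the median lay between -0.03 and 0.02 log2. The lowest values of the 19 on those −Pi arrays were -0.001, 0.01 and 0.56 log2, and the highest 6.90, 4.52 and 6.04 log2. The increase was thus not seen on every −Pi array for all of the 19. Chosen after its values were seen, Os.51600.1.S1_at read 6.90, 4.52 and 6.04 log2 in Dular root at −Pi and spanned 0.05 log2 elsewhere. The largest increase of all members, 6.25 log2, was that of Os.54592.1.S1_at, also without a gene, with 6.86, 5.20 and 6.75 log2 at −Pi and 0.01, -0.01 and 0.07 log2 at +Pi in Dular root. Of the members, 18 (8.41%, against 1.96% of all probe sets) bear serial numbers in a block of 1000 that starts at 51000 in the platform's identifiers, and 14 of these have no gene. The block was not set in advance, so its share is a description and supports nothing.

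Other probe sets of the same genes gave a partial check. For 19 member genes, 34 further probe sets did not meet the rule, of which 10 were flat on all arrays, with a span under 0.5 log2. Of the other 24, 16 increased by at least 1 log2 unit in Dular root and 7 moved by 0.5 log2 or less. Of 2 genes chosen after their values were seen, Os08g23410, a rubredoxin-family protein, went against its own membership. Its member probe set increased by 2.02 log2 in Dular root and 0.47 log2 in PB1 root, whereas its further probe sets increased by 2.17 and 1.06 log2 in Dular root and by 3.20 and 2.51 log2 in PB1 root. For the other, the granule-bound starch synthase gene Wx (LOC4340018), the member probe set, of a type that can hybridise to similar transcripts, increased by 3.27 log2, while 1 of 5 further probe sets increased by 1.15 log2 and 4 stayed within 0.02 log2 of 0. Of the 214 members, 26 are of that type (12.1%, against 12.5% of all probe sets).

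Few members were neighbours. Of 112 member genes placed in the order of the reference annotation, 8 pairs had at most 10 genes between them. DREB1A and DREB1B had 1 gene between them, as had the receptor kinase Os06g16300 and the peroxidase Os06g16350, and the glycerol-3-phosphate dehydrogenase Os01g71280 and CKX4. Both genes of the last pair were below PB1 root at +Pi, at -1.96 and -4.39 log2.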

How the data were processed

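The 24 Affymetrix rice arrays were normalized and summarized by the authors with GC-RMA in GeneSpring, and the deposited log2 values are centred on 0 for every probe set, a step the sources used here do not describe. No detection call or signal over background was at hand, and 3 arrays per group set the precision. Groups came from the array titles. Of 57381 probe sets, 123 controls were left out, and 0 columns of per-sample values were unused. Members were chosen by the root means, with earlier results of these data known when the rule, the gene lists and the tests were set.

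Group means were fitted to all 24 arrays by lmFit and eBayes of limma (version 3.58.1, run in R 4.3.3), and p-values were adjusted by Benjamini-Hochberg over 57258 probe sets, as for every adjusted p printed. The script was tested on simulated data. Genes came from the platform annotation, the RefSeq gene table and the probe set pairing of the paper's supplement, of which only a portion was at hand. Gene families were matched on names in that supplement in place of the reference, which has few. A member's 2 annotations lay on different chromosomes in 2 of 76 cases.

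Genes named are the 12 largest increases without overlapping arrays, the 5 lowest and 5 highest called root averages, the 4 largest called shoot changes each way and up to 2 per list, 44 in all. Others are marked as chosen after their values were seen. No promoter table was at hand, so the planned search of promoters was not run. Alternatives were median centring, quantile normalization, other limits of the rule, a block for the replicate number, a variance trend, unmoderated tests, a filter on flat probe sets, no fold limit, fits to 1 tissue, counting each gene once, and leaving out each array in turn.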

Additional observations from a re-analysis of the deposited data

Results flagged for a closer look

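In 9 of the 214 members the change between −Pi and +Pi differed between Dular and PB1 shoot by limma's test of the difference itself (Dular change minus PB1 change). CAX1a (LOC4324573) differed by 2.90 ± 0.46 log2 (SE, adjusted p = 0.00204), with a change of 1.84 log2 in Dular and -1.07 log2 in PB1. The metal cation transporter Os06g37010 differed by 1.51 ± 0.34 log2 (SE, adjusted p = 0.0202), with 1.22 log2 in Dular and -0.29 log2 in PB1. LOC4335335, a gene with no annotation here, differed by 1.41 ± 0.32 log2 (SE, adjusted p = 0.023), and the rubredoxin-family gene Os08g23410 by 1.28 ± 0.20 log2 (SE, adjusted p = 0.00204). The adjusted p of LOC4335335 was 0.0629 without Dular shoot −Pi replicate 3, 0.056 without PB1 shoot −Pi replicate 2 and 0.056 without PB1 shoot +Pi replicate 1. The probe sets without a gene were OsAffx.12508.1.S1_at at 3.47 ± 0.36 log2 (SE, adjusted p = 5.37e-05), Os.7328.1.S1_at at 3.45 ± 0.68 log2 (SE, adjusted p = 0.0087), Os.21858.1.S1_at at 1.75 ± 0.45 log2 (SE, adjusted p = 0.0424) and a pair named for the same transcript, Os.19951.1.S1_x_at at 1.17 log2 and Os.19951.1.S1_at at 1.07 log2. Without PB1 shoot −Pi replicate 2, 6 of the 9 remained called. Os06g37010 lost its call without Dular shoot +Pi replicate 3 (adjusted p = 0.0508), and Os.19951.1.S1_at fell below 2-fold without that array, Dular shoot −Pi replicate 1 or PB1 shoot −Pi replicate 3 (0.94, 0.99 and 0.92 log2). Os.21858.1.S1_at lost its call without any 1 of several arrays, among them root arrays, and Os.19951.1.S1_x_at without any 1 of several shoot arrays (adjusted p up to 0.110 and 0.0769). With the shoot arrays alone 6 of the 9 lost their call, at an adjusted p of 0.117 for Os06g37010, 0.0814 for Os08g23410, 0.0562 for Os.7328.1.S1_at, 0.197 for Os.21858.1.S1_at, 0.130 for Os.19951.1.S1_at and 0.189 for Os.19951.1.S1_x_at. CAX1a and OsAffx.12508.1.S1_at kept their calls in each of these fits.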

How the results depend on the processing

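With a PB1 root window of 0.25 log2 the rule gave 135 members, 38 of them lower at +Pi, and with an increase of at least 1.5 log2 it gave 458, with 225 higher at −Pi and 195 lower at +Pi. Quantile normalization gave 188 members, 149 of them shared, and median centring 224, with 213 shared. Leaving out 1 root array gave 196 to 250 members, 102 to 136 higher at −Pi, 78 to 98 lower at +Pi and 12 to 22 both.

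Calls for the difference between shoot responses numbered 17 under quantile normalization and 17 when only probe sets spanning at least 0.5 log2 were tested. Fitted to the shoot arrays alone, 14 were called in Dular shoot and 0 in PB1 shoot. Leaving out 1 array gave 18 to 28 calls in Dular shoot, 0 to 5 in PB1 shoot (0 without PB1 shoot −Pi replicate 2), 6 to 11 for the difference, 44 to 54 between the shoots at +Pi, 54 to 64 at −Pi and 136 to 145 for the root average. The causes were not tested.

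On average, replicate numbers did not pair the arrays (mean r of deviations 0.0203 for shared numbers, -0.00998 for others). The r of pairs with a shared number ranged from -0.179 to 0.400, with 14 of 84 over 0.1, and pairing between single groups was not tested. With the replicate block the counts were 22 in Dular shoot, 3 in PB1 shoot, 8 for the difference, 50 and 61 between the shoots at +Pi and −Pi, and 145 for the root average.

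For named genes, only comparisons called in the main fit were followed, so a call gained under an alternative could not count. Of their 2464 alternatives, 2414 kept the direction and the call, 50 lost the call and 0 reversed. These include the root averages, which come from the arrays that chose the members. The pooled count therefore does not measure how stable the shoot calls are. The increase in Dular root moved by at least the larger SD of its 2 groups in 10 of 1144, all under quantile normalization, and 0 reversed. Leaving out 1 of 3 arrays cannot shift a mean that far, so those fits could not count as moved. The increase of DREB1B, for example, was 0.17 log2 without Dular root −Pi replicate 1 and 3.51 log2 without −Pi replicate 2, in place of 2.31 log2. Centred values without a background signal do not show which probe sets lie near the detection limit, and 3 arrays per group limit the precision of each value.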
